A study of Yarrowia lipolytica with 8 samples.

Results

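Yarrowia lipolytica is an oleaginous yeast, known for storing lipid and for secreting citric acid when nitrogen runs short. The results below describe how its transcripts differed between cells taken before and cells taken after glycerol limitation in a dual substrate culture in which the dissolved oxygen pressure (pO2) was not controlled. Strain ACA DC 50109 was grown in batch fermenters on a 1:1 mixture of glucose and glycerol in a nitrogen-limited medium, which was common to all groups. Of the 8 RNA-seq libraries of the series, 4 belong to this culture: 2 biological replicates before glycerol limitation (phase pO2-UN-2) and 2 after it (phase pO2-UN-3). The other 4 come from a culture with pO2 control, 2 before (pO2-1) and 2 after (pO2-2), and serve here only to show where the response differed. Phase and time in culture changed together, so that their parts cannot be told apart. All genes listed for the uncontrolled culture were taken that had at least 1 FPKM (fragments per kilobase of gene, scaled to the number of mapped fragments) in at least 2 of its 4 libraries, which left 6185 of 6386 genes.

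Glycerol enters this yeast by channels, is phosphorylated by glycerol kinase and oxidised to dihydroxyacetone phosphate, from where it joins lower glycolysis. When a preferred carbon source is used up, yeasts commonly turn to other carbon and nitrogen sources, and Y. lipolytica is well known for its ability to grow on fatty acids, alkanes, amino acids and proteins. Fatty acids are broken down by beta-oxidation in peroxisomes, small organelles built by proteins called peroxins. The carbon skeletons of the branched-chain amino acids leucine, isoleucine and valine are degraded by a 2-oxo acid dehydrogenase complex and further acyl-CoA enzymes to acetyl-CoA and propionyl-CoA.

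Depth was similar in the 4 libraries. The estimated number of fragments was between 5080000 and 5180000, and between 5901 and 6201 genes had at least 1 FPKM. The median over all listed genes was 35.25 and 35.07 FPKM before limitation and 49.2 and 50.42 after it. A gene was said to rise or fall where limma, run on log2(FPKM + 1), gave a Benjamini-Hochberg adjusted p under 0.05 and a log2 fold change of at least 2 in size. By this rule 701 genes (11.3% of those tested) were higher and 310 (5.01%) were lower after limitation. The replicates of one group did not overlap with those of the other in any of these 1011 genes, as was also the case in 86.1% of all tested genes. The median log2 fold change over all tested genes was 0.49. After median-of-ratios scaling, which sets the typical gene to the same level in every library, the median was 0.03, 486 genes (7.86%) were higher and 497 (8.04%) lower. All 486 were also called higher as deposited, and all 310 genes called lower as deposited were also called after scaling. The median difference between the 2 scalings was 0.47 on the log2 scale. Fold changes below are those of the FPKM as deposited, to be read against the median of 0.49. Values after scaling are given where they change the call of a named gene. Counts by gene list are as deposited unless scaling is named, and several shift towards falls after it. After scaling 2 genes of amino acid synthesis were higher and 10 lower, and of the redox genes 4 and 7. Among cell wall and mannosylation genes it was 6 and 5, and among proteases 9 and 5. Of the sterol genes 6 were lower.

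The balance of rises and falls differed by level. Among the 3522 genes with a mean of 10 to 100 FPKM over the 4 libraries, 425 rose and 98 fell. Among the 1661 genes with 100 to 1000 FPKM, 140 rose and 161 fell, and among the 227 genes above 1000 FPKM, 8 rose and 37 fell. The 10 most abundant transcripts of each library, which need not be the same genes, made up 9.09 and 8.63% of summed FPKM before and 7.04 and 7.21% after limitation. The plot of levels before and after limitation shows the most abundant genes of the first phase mainly below the line of equal level. Picking genes by their level in the first phase by itself favours lower values in the second.

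**Figure D1:**
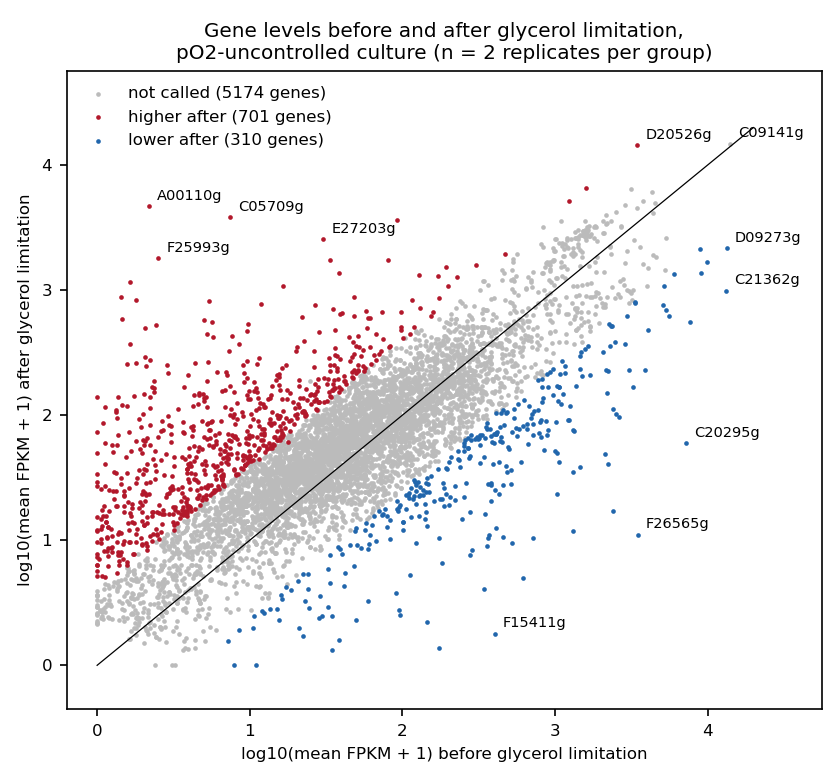
Mean level of each of the 6185 tested genes before (horizontal) and after (vertical) glycerol limitation, as log10(mean FPKM + 1) over 2 replicates. Red points are the 701 genes that were higher, blue points the 310 that were lower and grey points the rest. The line marks equal levels, and labelled points are genes given in the text without their YALI0_ prefix.

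Several of the most abundant transcripts of the first phase fell. Cytochrome c, the soluble carrier of electrons to the last respiratory complex (YALI0_D09273g), had 14224 and 12429 FPKM before and 2367 and 1991 after limitation, a log2 fold change of -2.61 ± 0.15 (SE, n = 2 per group, adjusted p = 1.14e-05). Nitric oxide dioxygenase, a flavohaemoglobin that converts nitric oxide to nitrate (YALI0_C21362g), went from 13546 and 12907 to 1284 and 698 FPKM, or by -3.80 ± 0.26. The small heat shock protein of the HSP20 family YALI0_C03443g had 9335 and 8735 FPKM before and 1818 and 914 after, a log2 fold change of -2.81. In each of these 3 genes both libraries before limitation lay far above both after it. The translation elongation factor 1-alpha, YALI0_C09141g, was the most abundant transcript in both phases, with 13853 and 14326 FPKM before and 15674 and 14012 after, and did not pass the test (log2 fold change 0.07 ± 0.15, adjusted p = 0.67). The oxidoreductase YALI0_D09933g, which has no closer annotation, fell from 8663 and 6774 to 598 and 520 FPKM.

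A few abundant transcripts rose. YALI0_D20526g, without annotated function, had 4442 and 2504 FPKM before and 12402 and 16650 after limitation. Its log2 fold change of 2.11 fell under the fold minimum after median-of-ratios scaling (1.62), without the second replicate before (1.69) and without the second after limitation (1.89). The gene annotated as sporulation-specific protein 4, YALI0_F24167g, went from 1325 and 1160 to 5213 and 5081 FPKM, with log2 fold changes of 2.05 as deposited, 1.57 after scaling and 1.96 without the second replicate before limitation.

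The largest increases were in genes that were close to silent before limitation. YALI0_F25993g, an alpha-1,2-mannosyltransferase that by its annotation adds mannose to glycoproteins, had 1.51 and 1.49 FPKM before and 1668 and 1960 after limitation (log2 fold change 9.50 ± 0.16, adjusted p = 1.87e-07). A second alpha-1,2-mannosyltransferase, YALI0_D04356g, went from 4.91 and 3.88 to 858 and 788 FPKM, a log2 fold change of 7.26. YALI0_C05709g, annotated only as a transferase of nitrogenous groups, had 6.69 and 6.18 FPKM before and 4593 and 3101 after, a log2 fold change of 8.99. YALI0_F30569g, a nucleobase:cation symporter that imports purines, pyrimidines or related compounds, rose from 0.85 and 0.28 to 217 and 291 FPKM. In all 4 genes the replicates of a phase lay close together beside the distance between the phases. The largest increase, that of YALI0_A00110g, is described further below, and this gene was among the 10 most abundant after limitation.

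Where a gene had only a few fragments in the first phase, the fitted fold change depends on the pseudocount, and the ratio of estimated fragments over both libraries is given instead with its exact 95% interval, which covers counting error only. YALI0_D02453g, without annotated function, was at 0.63 and 0.63 FPKM before and at 1125 and 1217 after limitation. This was 2 fragments against 3729, a ratio of 1860 (516 to 15400). For YALI0_B19030g, also without annotated function, 0.22 and 0.66 FPKM stood against 896 and 862, a ratio of 1980 (773 to 7260). YALI0_B01914g, a transporter of the pantothenate family, was listed at 0 in both libraries before limitation and at 106 and 174 FPKM after it, which was at least 819.3-fold higher against a floor of 3 fragments over the group.

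The largest decreases included carriers of metal ions. A zinc transporter of the SLC39 (ZIP) family, YALI0_F15411g, had 400 and 405 FPKM before and 0.96 and 0.63 after limitation (log2 fold change -7.82 ± 0.20, adjusted p = 6.44e-07). The copper transporter of the SLC31 family YALI0_C20295g, which carries reduced copper into the cell, fell from 6107 and 8253 to 64.9 and 53.5 FPKM, a log2 fold change of -6.89. Ferric-chelate reductase, which reduces iron and copper at the cell surface before uptake (YALI0_F07040g), went from 207 and 472 to 2.79 and 3.32 FPKM. Of the 47 tested genes of iron, zinc and phosphate uptake, a list that holds the zinc transporter and the reductase, 5 fell and 7 rose. The median was 0.27, and over all tested genes 5.01% fell and 11.3% rose. The 7 that rose included the siderophore-iron symporter YALI0_C06105g, at 4.25 and 1.68 FPKM before and 163 and 256 after, and the phosphate transporter YALI0_D08382g, at 0.50 and 0.74 before and 23.1 and 27.2 after. Members of this list thus moved in opposite directions.

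Other large decreases were in genes of less defined function. YALI0_F26565g had 2528 and 4446 FPKM before and 9.83 and 10.3 after limitation, with a log2 fold change of -8.24, and has no annotated function. YALI0_F29975g, annotated as 2-deoxy-D-gluconate 3-dehydrogenase, had 2469 and 2356 FPKM before and 29.7 and 2.68 after. Its fold change of -7.83 ± 0.82 was the least precise of this set, and was -6.30 without the second replicate after limitation and -9.36 without the first. A gene annotated as transcriptional regulator, YALI0_F25113g, fell from 2223 and 2224 to 38.1 and 41.5 FPKM, and in the culture with pO2 control from 5328 and 5276 to 73.3 and 74.1. The remaining ones, YALI0_C14696g, YALI0_E33891g, YALI0_D24145g, YALI0_F11737g and YALI0_F21384g, carry no functional annotation. Genes without a KEGG hit made up 38% of tested genes, 40.2% of those that rose and 48.7% of those that fell. The values of the 12 largest changes in each direction are plotted by library.

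**Figure D2:**
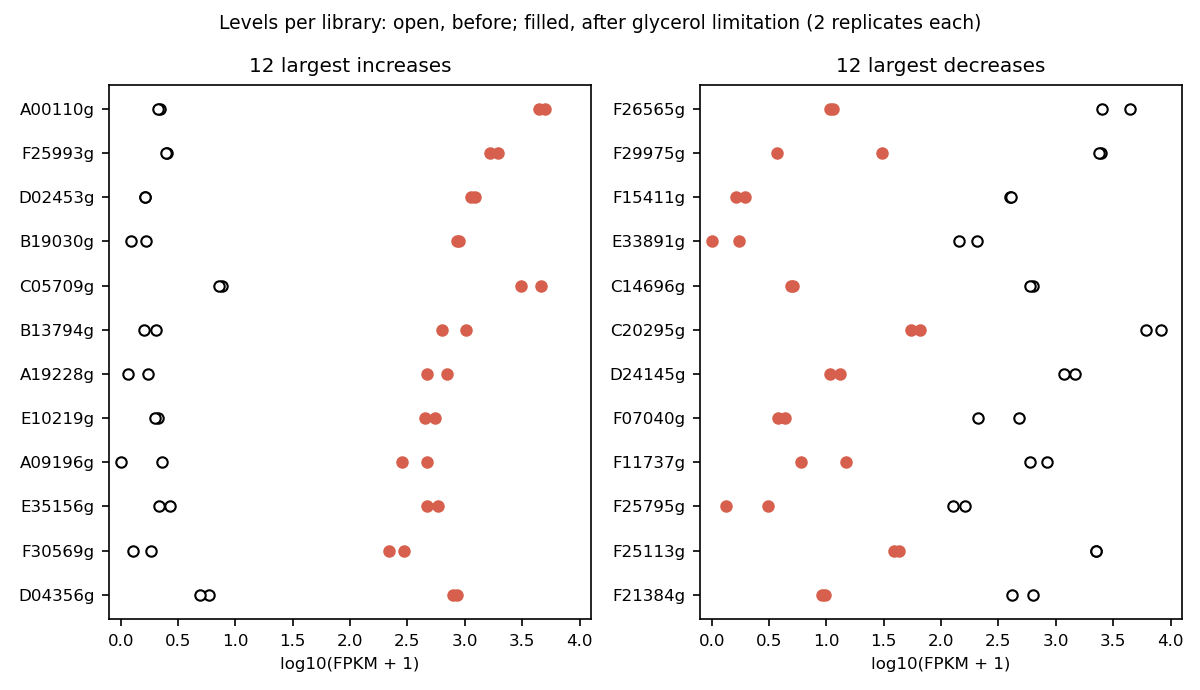
Level in each of the 4 libraries, as log10(FPKM + 1), of the 12 called genes that rose most and the 12 that fell most, all with a mean of at least 5 FPKM in the higher phase. Open and filled points are libraries before and after limitation. Groups that do not overlap were a condition for a gene to be shown. The widest gap between replicates after limitation is that of YALI0_F29975g, at 29.7 and 2.68 FPKM.

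Ammonium transporters were among the genes with the largest increases, and 4 of the 6 tested genes of the ammonium transporter (Amt) family rose. YALI0_B13794g had 1.03 and 0.58 FPKM before and 628 and 1025 after limitation (log2 fold change 8.81 ± 0.27, adjusted p = 1.46e-06), and YALI0_A19228g went from 0.74 and 0.15 to 469 and 698 FPKM, a change of 8.66. YALI0_E27203g, the most abundant member, rose from 36.2 and 22.2 to 2056 and 3057 FPKM. The fourth, YALI0_F16896g, was already at 140 and 83.4 FPKM before limitation and at 397 and 498 after it. Its log2 fold change of 2.03 was below the fold minimum after median-of-ratios scaling (1.55) and without the second replicate before (1.66) or after limitation (1.87), and it was added to the named genes after its values had been seen. Of the 7 proton-dependent oligopeptide transporters 2 rose. Over both families 6 of 13 tested genes rose and none fell, with a median of 1.35.

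Amino acid transporters moved in both directions. Of 20 tested amino acid transporters 7 rose and 3 fell, with a median of 1.38. All 10 belong to the AAT family of permeases, which has 16 of the 20 genes. After median-of-ratios scaling 6 rose and 4 fell. YALI0_E10219g had 1.13 and 1.00 FPKM before and 545 and 448 after limitation, a log2 fold change of 7.91 ± 0.19. YALI0_C00451g rose from 1.4 and 1.04 to 264 and 286 FPKM, and YALI0_D15422g from 1.24 and 0.86 to 391 and 193. YALI0_C09889g went from 1.09 and 1.5 to 161 and 176 FPKM. These 4 permeases shared a level near 1 FPKM in the first phase, which follows in part from naming members by the size of their change. The 3 that fell, named after their values had been seen, were YALI0_F19866g (33.5 and 33.5 FPKM before, 0.33 and 0.33 after), YALI0_B16522g (43.4 and 53.4 before, 1.5 and 1.14 after) and YALI0_B19800g (74.4 and 42.4 before, 3.10 and 1.42 after). The most abundant member, YALI0_E20713g, had 211 and 201 FPKM before and 592 and 586 after, a log2 fold change of 1.51 that did not reach the fold minimum.

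Nitrogen assimilation was represented by the enzymes of the glutamine and glutamate cycle. Glutamate synthase, which makes glutamate from glutamine and 2-oxoglutarate (YALI0_B19998g), rose from 25.3 and 13.7 to 288 and 412 FPKM (log2 fold change 4.13 ± 0.30, adjusted p = 2.67e-05). One glutamine synthetase gene, YALI0_D13024g, rose from 28.7 and 19.96 to 149 and 145 FPKM. The other and more abundant one, YALI0_F00506g, had 842 and 837 FPKM before and 3212 and 3125 after, a log2 fold change of 1.91 that stayed just under the fold minimum. These genes belong to the list of amino acid synthesis, in which 3 of 60 tested genes rose and 5 fell, with a median of -0.39. Those that fell included homoserine O-acetyltransferase of methionine synthesis (YALI0_E00836g, from 180 and 192 to 17.1 and 33.1 FPKM) and L-aminoadipate-semialdehyde dehydrogenase of lysine synthesis (YALI0_E06457g, from 337 and 478 to 62.0 and 76.3). D-3-phosphoglycerate dehydrogenase, the first enzyme of serine synthesis (YALI0_F09966g), fell from 1399 and 1539 to 328 and 262 FPKM. The other gene of this annotation, YALI0_D25256g, named after its values had been seen, rose from 10.8 and 11.9 to 60.1 and 64.9 FPKM, with log2 fold changes of 2.37 as deposited and 1.90 after scaling.

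Enzymes that degrade branched-chain amino acids and propionate showed the highest median of the lists of 8 or more genes. Of 12 tested genes 8 rose and none fell, the median was 3.45 against 0.49 over all tested genes, and after median-of-ratios scaling it was 2.99 with the same number of 8 called. The alpha subunit of the 2-oxoisovalerate dehydrogenase, which commits the 2-oxo acids to degradation (YALI0_D08690g), had 0.87 and 1.15 FPKM before and 89.5 and 115 after limitation (log2 fold change 5.67 ± 0.23, adjusted p = 3.41e-06). The beta subunit of the same complex, YALI0_F05038g, went from 1.70 and 1.69 to 72.8 and 77.5 FPKM. Both subunits of this enzyme stood at about the same level in each phase. Isovaleryl-CoA dehydrogenase of leucine degradation (YALI0_E12573g) rose from 1.14 and 0.96 to 48.7 and 73.0 FPKM. Methylglutaconyl-CoA hydratase, a later enzyme of that route (YALI0_F22121g), went from 0 and 0.70 to 48.9 and 65.5 FPKM, which was 3 fragments against 487, a ratio of 162 (55.2 to 790). Both branched-chain aminotransferases, which take the first and reversible step, were less affected. YALI0_D01265g had 55.0 and 55.6 FPKM before and 123 and 140 after, and YALI0_F19910g had 101 and 166 before and 357 and 245 after, with log2 fold changes of 1.23 and 1.19.

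Fatty acid beta-oxidation changed in the same direction. Of 21 tested genes 13 rose and none fell, with a median of 2.49, and after median-of-ratios scaling 12 rose and 1 fell. Without the second replicate before limitation 1 gene fell too. Acetyl-CoA acyltransferase, the thiolase that releases acetyl-CoA in each round (YALI0_E18568g), had 1.31 and 1.13 FPKM before and 125 and 151 after limitation (log2 fold change 5.96 ± 0.21, adjusted p = 2.28e-06). The multifunctional beta-oxidation protein, which carries out the hydration and second oxidation (YALI0_E15378g), rose from 5.0 and 5.24 to 207 and 237 FPKM. Of 6 acyl-CoA oxidase genes, for the first oxidation, 5 rose. The strongest were YALI0_D24750g, from 1.43 and 1.88 to 85.5 and 93.2 FPKM, and YALI0_F10857g, from 3.23 and 3.29 to 76.7 and 74.97. Replicates of these genes lay close together in both phases. The most abundant members did not pass the fold minimum. Long-chain acyl-CoA synthetase, which activates fatty acids (YALI0_D17864g), had 353 and 371 FPKM before and 1039 and 1157 after, a log2 fold change of 1.6. One acetyl-CoA C-acetyltransferase gene, YALI0_B08536g, had 198 and 218 FPKM before and 76.6 and 69.0 after (log2 fold change -1.5).

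**Figure D3:**
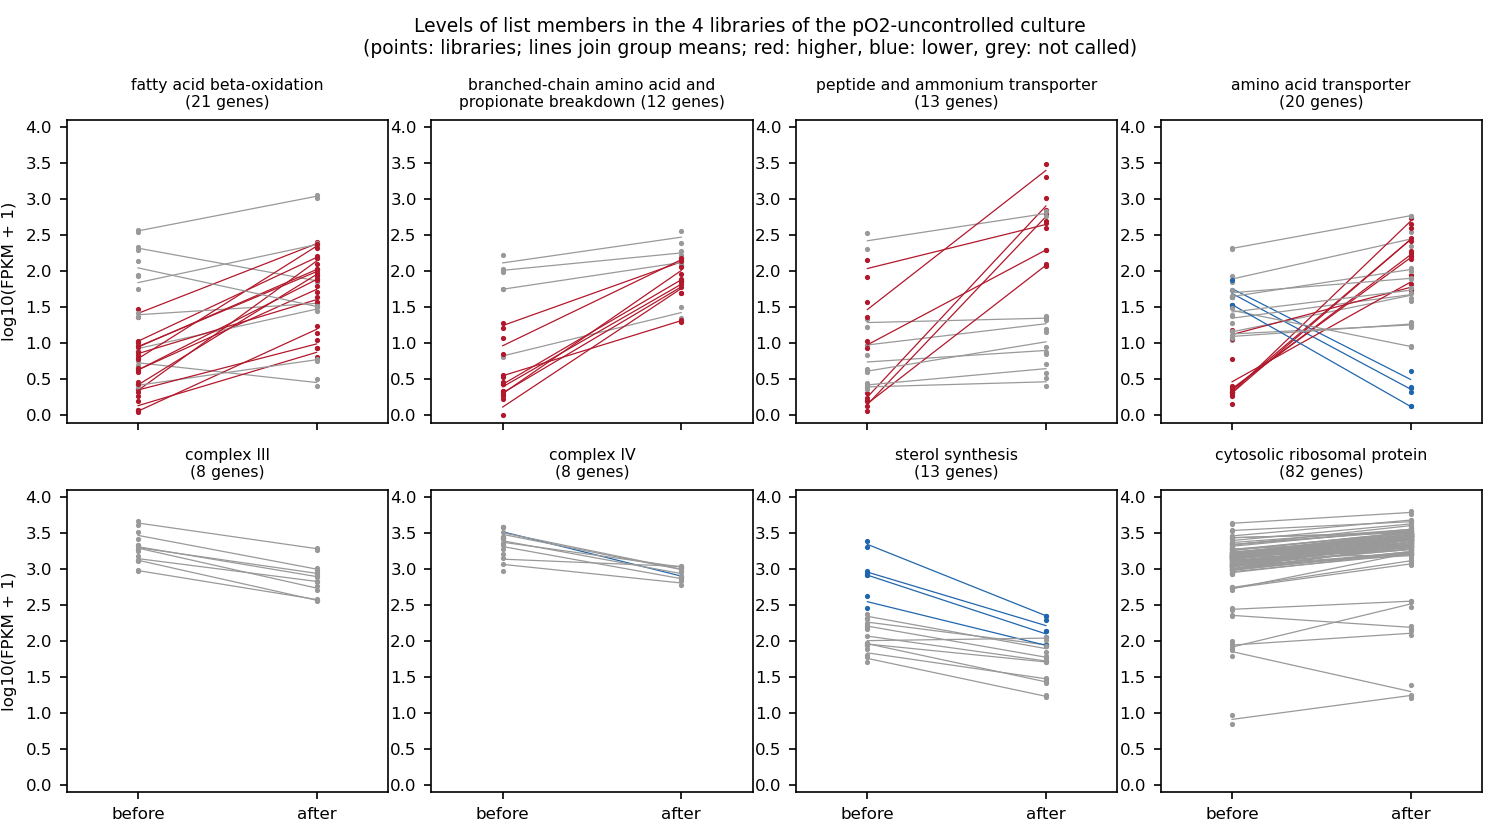
Level of each member of 8 gene lists in the pO2-uncontrolled culture, as log10(FPKM + 1). Points are libraries, lines join the group means, and red, blue and grey mark members that rose, fell or were not called. Beta-oxidation and branched-chain degradation rise from low levels, most members of complexes III and IV and of sterol synthesis are lower after limitation, and amino acid transporters separate into rising and falling members.

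Of 12 tested peroxin genes 6 rose and none fell, with a median of 1.97, and 4 remained called after median-of-ratios scaling. Peroxin-19, which chaperones membrane proteins to the peroxisome (YALI0_B22660g), had 7.83 and 5.86 FPKM before and 93.7 and 110 after limitation (log2 fold change 3.72 ± 0.21, adjusted p = 1.04e-05). Its membrane anchor peroxin-3, YALI0_F22539g, rose from 6.75 and 6.05 to 48.8 and 58.4 FPKM, and the import receptor peroxin-5, YALI0_F28457g, from 10.3 and 12.4 to 69.3 and 83.5. The other import receptor, peroxin-7 (YALI0_F18480g), had 74.3 and 76.4 FPKM before and 69.8 and 92.7 after, and did not pass the test (log2 fold change 0.09).

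Among 6 tested cytochrome P450 genes, whose products insert oxygen into alkanes, fatty acids or sterols, 4 rose and 1 fell. YALI0_F01320g, annotated as unspecific monooxygenase, was at 0.13 and 0.13 FPKM before and at 82.5 and 147 after limitation, that is 2 fragments against 1798 and a ratio of 899 (249 to 7430). YALI0_E14509g rose from 9.14 and 10.3 to 130 and 235 FPKM and YALI0_B13816g from 4.01 and 2.30 to 50.01 and 83.4. The one that fell, YALI0_B05126g, is sterol 14-demethylase and is described with the sterol genes. In the list of alcohol and aldehyde dehydrogenases 6 of 13 rose and none fell, with a median of 1.71. Aldehyde dehydrogenase YALI0_F04444g had 3.0 and 3.48 FPKM before and 112 and 124 after limitation, and YALI0_D07942g rose from 6.58 and 6.24 to 145 and 194. Mitochondrial and peroxisomal carriers of the SLC25 family counted 9 rises and no fall among 31. Both peroxisomal adenine nucleotide transporters were among the 9: YALI0_E03058g rose from 6.54 and 7.97 to 89.4 and 96.6 FPKM, and YALI0_A20944g from 12.2 and 10.9 to 110 and 121. The carnitine and acylcarnitine carrier YALI0_C02431g went from 3.50 and 6.06 to 56.2 and 56.2 FPKM.

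In central carbon metabolism, few genes of glycolysis, the tricarboxylic acid cycle and the pentose phosphate pathway were called. Of 16 tested genes of glycolysis and gluconeogenesis 1 rose and none fell, with a median of -0.14. A second rose without the first replicate before, and 1 fell without the first after limitation. The one that rose was phosphoenolpyruvate carboxykinase, the entry enzyme of gluconeogenesis (YALI0_C16995g), from 76.5 and 68.0 to 735 and 592 FPKM (log2 fold change 3.18 ± 0.16, adjusted p = 6.13e-06). Phosphoglycerate kinase, YALI0_D12400g, had 3127 and 3250 FPKM before and 912 and 767 after, and its log2 fold change of -1.93 was under the fold minimum, and passed it after median-of-ratios scaling (-2.42) and without the first replicate after limitation (-2.05). Glyceraldehyde 3-phosphate dehydrogenase, YALI0_C06369g, had 5682 and 5033 FPKM before and 2665 and 2567 after (log2 fold change -1.03). Of 20 genes of the tricarboxylic acid cycle 2 rose: a citrate synthase gene, YALI0_E00638g, from 5.29 and 6.25 to 42.7 and 58.9 FPKM, and the beta subunit of succinyl-CoA synthetase, YALI0_D04741g, from 177 and 171 to 883 and 855. The latter had 2.32 as deposited and 1.83 after scaling. Among 9 pentose phosphate pathway genes only ribose 5-phosphate isomerase B (YALI0_F01628g) rose, from 13.5 and 7.38 to 36.2 and 51.9 FPKM, with a log2 fold change of 2.01 that was 1.55 after scaling, and 1.61 and 1.75 without the second replicate before or after limitation. Of 4 genes of the glyoxylate cycle, which makes dicarboxylic acids from acetyl-CoA, the malate synthases YALI0_E15708g and YALI0_D19140g rose. Both were also called after scaling. YALI0_E15708g went from 9.81 and 6.31 to 242 and 261 FPKM. YALI0_D19140g was low, with 6 fragments before against 112 after limitation, a ratio of 18.7 (8.31 to 51.9). The isocitrate lyases YALI0_C16885g and YALI0_F31999g had log2 fold changes of 1.22 and 0.94, under the fold minimum. In the list of 5 genes of glycerol entry, with a median of 0.85, the cytosolic glycerol-3-phosphate dehydrogenase YALI0_B02948g, which makes glycerol 3-phosphate from dihydroxyacetone phosphate, rose from 11.4 and 8.77 to 160 and 147 FPKM. Glycerol kinase (YALI0_F00484g) had 630 and 611 FPKM before and 348 and 350 after limitation, and the glycerol-3-phosphate dehydrogenase that oxidises glycerol 3-phosphate (YALI0_B13970g) 1568 and 1538 before and 544 and 567 after, with log2 fold changes of -0.83 and -1.48 that did not reach the fold minimum. The aquaglyceroporin-related YALI0_E05665g and YALI0_F00462g had 0.85 and 1.12. The list made up 0.21 and 0.21% of summed FPKM before and 0.11 and 0.12% after.

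Sugar and other transporters of the major facilitator superfamily (MFS) rose more often than they fell, as did all tested genes (11.3% higher and 5.01% lower). Of 14 tested transporters of the sugar porter family 5 rose and none fell, with 3 called after median-of-ratios scaling and 3 without the second replicate after limitation. The major inositol transporter YALI0_F18084g had 0.71 and 0.90 FPKM before and 223 and 294 after limitation (log2 fold change 7.16 ± 0.22, adjusted p = 1.47e-06). YALI0_D00132g, of the same annotation, went from 0.61 and 0.40 to 12.9 and 22.8 FPKM. The most abundant member, the sugar:proton symporter YALI0_F06776g, had 532 and 521 FPKM before and 178 and 195 after, a log2 fold change of -1.5. Of 39 other MFS transporters 16 rose and 1 fell, and none fell without the second replicate before limitation. One of the 16, YALI0_E32901g, is annotated as a lactate transporter, and went from 0.13 and 0.38 to 33.3 and 80.9 FPKM.

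The respiratory chain lay on the other side of the median of all genes. None of the 8 tested subunits of complex III (ubiquinol-cytochrome c reductase) reached the fold minimum, but all 8 had an adjusted p under 0.05 with log2 fold changes from -1.84 to -1.05 and a median of -1.36. The core subunit 2, YALI0_F08613g, had 1323 and 1323 FPKM before and 372 and 364 after limitation, and the iron-sulfur subunit, YALI0_A02915g, 2171 and 1913 before and 776 and 793 after. Of the 8 subunits of complex IV (cytochrome c oxidase) 1 fell: subunit 5a, YALI0_E10144g, from 3837 and 2819 to 810 and 785 FPKM, a log2 fold change of -2.04 that was -1.82 without the first replicate before limitation. The gene annotated as subunit 5b, YALI0_E19723g, had 1614 and 1161 FPKM before and 1062 and 1108 after (log2 fold change -0.34, adjusted p = 0.12). The median of complex IV was -1.5, that of the 11 ATP synthase subunits -0.65 and that of the 21 subunits of complex I -0.26. After median-of-ratios scaling 3 genes of complex III, core subunit 2 among them (-2.33), and 3 of complex IV fell, and none of complex I. The proton pump of the vacuole, the V-type ATPase, had a median of 0.37 over 14 subunits with none called.

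Sterol synthesis fell in part. Of 13 tested genes 4 fell and none rose, with a median of -1.49, and 12 of 13 had a negative change with an adjusted p under 0.05. Sterol 24-C-methyltransferase, which acts late in ergosterol synthesis (YALI0_F08701g), had 1996 and 2424 FPKM before and 223 and 225 after limitation (log2 fold change -3.29 ± 0.14, adjusted p = 3.71e-06). Sterol 14-demethylase, the target of azole antifungals (YALI0_B05126g), fell from 817 and 828 to 138 and 113 FPKM. Squalene monooxygenase, YALI0_E15730g, went from 940 and 872 to 196 and 136, and farnesyl diphosphate synthase, YALI0_E05753g, from 290 and 425 to 88.0 and 84.6. The last was under the fold minimum without the second replicate before (-1.74) or after limitation (-1.98). The direction was common to early and late enzymes of the route.

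Fatty acid synthesis and storage compounds showed mixed changes. Of 11 genes of fatty acid synthesis and desaturation 2 fell: malic enzyme, which forms pyruvate from malate (YALI0_E18634g), from 687 and 550 to 80.8 and 80.1 FPKM, and a gene annotated as delta8-fatty-acid desaturase (YALI0_E21131g), from 418 and 375 to 71.8 and 66.8. The delta-9 desaturase that makes oleic acid, YALI0_C05951g, had 2038 and 2586 FPKM before and 2018 and 1885 after, and did not pass the test (log2 fold change -0.24, adjusted p = 0.21). ATP citrate lyase, which provides cytosolic acetyl-CoA (YALI0_D24431g), had 536 and 662 FPKM before and 429 and 401 after. Of 5 genes of triacylglycerol synthesis, phospholipid:diacylglycerol acyltransferase (YALI0_E16797g) rose from 9.68 and 8.05 to 134 and 176 FPKM. Among 22 lipases and esterases 3 rose and 1 fell, beside 11.3% and 5.01% over all tested genes. YALI0_B08030g rose from 0.68 and 0.67 to 49.9 and 51.7 FPKM. In the list of 11 genes of storage carbohydrate 2 rose and 2 fell, with 1 rising without the first replicate before or the second after limitation. One of 3 genes annotated as glycogen debranching enzyme (YALI0_F10461g) rose from 7.85 and 14.8 to 126 and 106 FPKM. Glycogen phosphorylase, annotated as starch phosphorylase (YALI0_F04169g), fell from 841 and 777 to 60.1 and 73.0, and glycogen synthase (YALI0_F18502g) from 515 and 446 to 96.1 and 115.

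**Figure D4:**
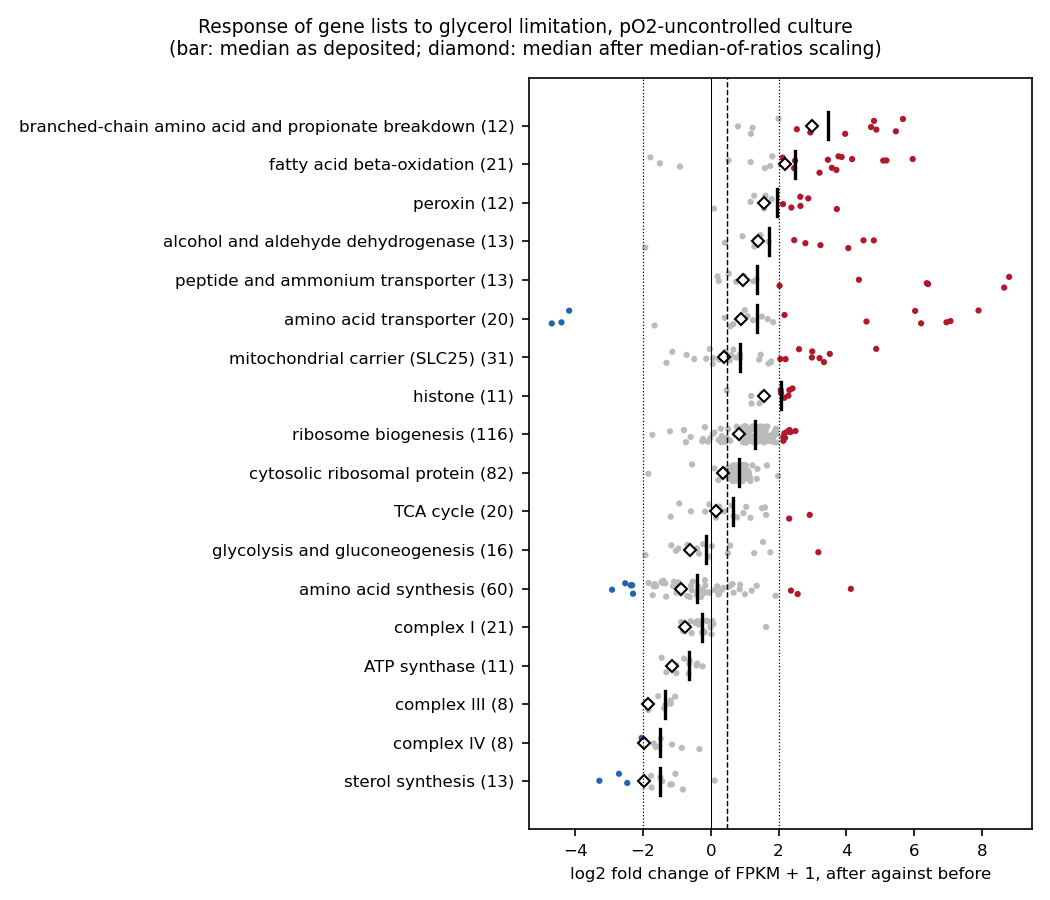
Log2 fold change (FPKM + 1, after against before limitation) of each tested member of 18 gene lists, with the number of members in brackets. Bars are medians as deposited, open diamonds medians after median-of-ratios scaling, red and blue points members that rose or fell, the dashed line the median of all tested genes (0.49) and dotted lines the fold minimum. Medians run from 3.45 for branched-chain degradation to -1.5 for complex IV.

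Redox and protein-quality genes were called in both directions, beside 11.3% higher and 5.01% lower over all tested genes. Of 40 redox genes 4 rose and 4 fell, with a median of 0.07. Superoxide dismutase of the Fe-Mn family, which removes superoxide (YALI0_C16621g), fell from 1289 and 1380 to 52.6 and 94.4 FPKM (log2 fold change -4.22 ± 0.25, adjusted p = 1.27e-05). The peroxiredoxin YALI0_A19426g, which reduces peroxides, fell from 5766 and 5364 to 626 and 613 FPKM. Lactoylglutathione lyase, which detoxifies methylglyoxal (YALI0_E24057g), rose from 4.50 and 5.51 to 49.9 and 71.7. Of 42 chaperones 2 rose and 2 fell, with a median of 0.87, and 28 had a positive and 4 a negative change with an adjusted p under 0.05. An HSP70 gene, YALI0_D08184g, fell from 2465 and 2469 to 442 and 321 FPKM, whereas the HSP70 of the endoplasmic reticulum, YALI0_E13706g, rose from 98.7 and 96.4 to 525 and 489, with log2 fold changes of 2.36 as deposited and 1.88 after scaling. Among 36 proteasome genes 2 fell and none rose. One of them was the alpha 3 subunit of the core particle, YALI0_C19382g, which went from 2335 and 1788 FPKM, the highest of the list, to 373 and 267. Among 65 proteases 12 rose and 3 fell. Of the candidapepsins, secreted aspartyl proteases, YALI0_F09163g rose from 0.88 and 1.90 to 44.5 and 56.4 FPKM, while YALI0_E25784g fell from 86.7 and 136 to 4.99 and 3.56.

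Few genes of growth were called, and the medians of their lists lay on both sides of that of all genes. None of 82 cytosolic ribosomal protein genes was called, with a median of 0.85, and 77 of them had a positive change with an adjusted p under 0.05. Their share of summed FPKM was 10.08 and 11.46% before and 20.21 and 19.1% after limitation. After median-of-ratios scaling the median was 0.36. Of 116 ribosome biogenesis genes 8 rose and none fell, with a median of 1.31, 1 rose after scaling, and 14 rose without the first replicate before limitation. The strongest was ribosomal RNA-processing protein 1, YALI0_D08668g, from 37.8 and 24.5 to 186 and 169 FPKM. Of 48 DNA replication genes only the replicative helicase subunit YALI0_C10252g (minichromosome maintenance protein 4) rose, from 34.1 and 33.8 to 172 and 180 FPKM, and its log2 fold change of 2.34 was 1.86 after scaling. The median of the list was 1.11, with 5 and 3 genes higher without the first or second replicate before, and 4 and 2 without the first or second after limitation. Of 64 genes of mitosis and the cell cycle, with a median of 0.20, 1 rose and 2 fell, with between 0 and 3 higher when 1 library was left out, 5 lower without the first and 1 without the second replicate after limitation, and kinesin YALI0_D07722g going from 77.8 and 85.6 to 17.1 and 9.82 FPKM. Of 37 aminoacyl-tRNA synthetases, with a median of -0.24, 2 fell, for serine (YALI0_B05918g, from 459 and 396 to 40.8 and 41.5 FPKM) and for proline (YALI0_D15620g, from 123 and 120 to 16.5 and 20.9).

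Histone genes shared an upward shift. All 11 had a positive change with an adjusted p under 0.05, 6 rose by the fold minimum and 1 of them still did after median-of-ratios scaling, when the median went from 2.07 to 1.58. Histone H1, YALI0_B16280g, had 99.1 and 94.5 FPKM before and 505 and 452 after limitation (log2 fold change 2.29, and 1.81 after scaling). The histone H4 gene YALI0_F25883g rose from 367 and 240 to 1480 and 1698 FPKM, with log2 fold changes of 2.41 as deposited and 1.93 after scaling. The H4 gene YALI0_C11385g had 1857 and 1307 before and 3454 and 3727 after (log2 fold change 1.20). Near-identical copies of core histone genes can share fragments, so that values of single copies are uncertain.

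Regulators and cell wall genes contributed single genes. Of 15 fungal transcription regulators 3 rose and 1 fell. Of 4 tested GATA-type factors 2 rose and none fell. Some members of this family govern nitrogen catabolite genes in Saccharomyces cerevisiae, and the role of those that rose here was not tested. YALI0_D20482g went from 17.3 and 7.26 to 62.8 and 108 FPKM (log2 fold change 2.76 ± 0.41), and YALI0_C22682g from 49.7 and 42.3 to 237 and 343 (2.61 ± 0.20). GCN4, the activator of amino acid synthesis genes in that species (YALI0_E27742g), had 1003 and 1210 FPKM before and 1185 and 1418 after, and did not pass the test. SWI5, known in that species as a cell cycle factor (YALI0_E16973g), fell from 106 and 127 to 28.2 and 12.3 FPKM. Of 57 genes of the cell wall and mannosylation 7 rose and 1 fell, beside 11.3% and 5.01% over all tested genes. The gene that fell was the chitin synthase YALI0_B16324g, from 140 and 233 to 25.1 and 10.6 FPKM.

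Some genes that rose lay side by side on a chromosome. There were 11 runs of 3 and 3 runs of 4 neighbouring genes that all rose, and 0 runs of 3 that all fell. Over all tested genes 11.3% rose and 5.01% fell, so that more runs of rises than of falls arise from these shares alone. Whether the runs exceed the number due to these shares was not tested. The first run of 4, on chromosome B from 2862781 to 2872576 (CLIB122 assembly), held 4-hydroxyphenylpyruvate dioxygenase, an enzyme of tyrosine degradation (YALI0_B21846g), which rose from 6.55 and 11.1 to 494 and 579 FPKM (log2 fold change 5.81 ± 0.24). Its neighbours YALI0_B21824g, an oxygenase by its EC number, YALI0_B21868g and YALI0_B21890g rose by 6.17, 4.3 and 2.36 on the log2 scale, the last with 1.88 after median-of-ratios scaling. The second run, on chromosome C from 2232419 to 2245895, consisted of YALI0_C15719g, YALI0_C15741g, YALI0_C15785g and YALI0_C15807g, none with an annotated function. YALI0_C15719g was no longer called without either replicate after limitation (2.66 without the first and 3.15 without the second). YALI0_C15807g was listed at 0 in both libraries before limitation and had 31.5 and 25.1 FPKM after it, at least 209-fold higher against the floor of 3 fragments. The third run, on chromosome D from 749892 to 764871, held the potassium channel gene YALI0_D05841g, YALI0_D05863g, the dehydrogenase YALI0_D05929g and YALI0_D05973g, with log2 fold changes of 2.10, 2.18, 2.52 and 3.4, of which those of YALI0_D05841g and YALI0_D05863g were 1.69 and 1.70 after scaling, and 1.91 and 1.93 without the second and without the first replicate after limitation.

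The same step in the culture with pO2 control was compared gene by gene by an interaction term over all 8 libraries. The replicate spread differed between the cultures, and the fit pooled it over both, so that its adjusted p values are approximate. The files of the cultures were made separately, so that levels are set side by side across them without a test. The response was more positive without pO2 control in 739 of 6272 genes (11.8%) and more negative in 429 (6.84%). Of the 701 genes that rose here, 384 (54.8%) also had a more positive response by this test, and of the 310 that fell 152 had a more negative one. The interaction contains the change without pO2 control by which these genes were chosen. Shares above those of all genes therefore follow in part from the choice and are no separate result. In the controlled culture itself 9.52% of tested genes were called higher and 4.29% lower. Rises in both cultures were seen for 166 genes and falls in both for 75, while 37 genes rose here and fell there and 5 fell here and rose there.

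Degradation and uptake genes were among those with a different response. For the 12 genes of branched-chain and propionate degradation the median was 3.45 without and -0.93 with pO2 control, and 9 of them had a more positive response by the interaction test. YALI0_E12573g, isovaleryl-CoA dehydrogenase, had 236 and 238 FPKM before and 74.4 and 71.5 after limitation in the controlled culture, an interaction of 6.58 (adjusted p = 6.71e-07). The levels after limitation were close in both cultures, and those before it lay apart. For beta-oxidation the medians were 2.49 without and 0.03 with pO2 control, with 12 of 21 genes more positive by the test. The acyl-CoA oxidase YALI0_D24750g had 165 and 161 FPKM before and 172 and 169 after in the controlled culture, against 1.43 and 1.88 before and 85.5 and 93.2 after in the uncontrolled one. Peroxins had medians of 1.97 without and -0.29 with control, and 5 of 12 were more positive. Among ammonium transporters, YALI0_B13794g rose in the controlled culture too, from 304 and 309 to 2407 and 2369 FPKM, and its interaction was 5.85. DNA replication genes had medians of 1.11 and -1.08, with 32 of 48 more positive and none more negative by the test.

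The opposite difference was found in ribosomal genes. Cytosolic ribosomal proteins had a median of 0.85 without and 2.90 with pO2 control, where 74 of 82 rose, and 44 of them had a more negative response without control by the interaction test. Ribosome biogenesis had medians of 1.31 and 2.64, with 25 of 116 genes more negative by the test and none more positive. The peroxiredoxin YALI0_A19426g, which fell here, rose in the controlled culture from 109 and 112 to 1409 and 1425 FPKM, an interaction of -6.83 (adjusted p = 7.71e-09). YALI0_F09966g, D-3-phosphoglycerate dehydrogenase, rose there from 15.9 and 16.4 to 183 and 190 FPKM, an interaction of -5.77. Complex III had medians of -1.36 without and -0.85 with control, and none of its 8 genes differed by the test. Sterol synthesis had -1.49 and -1.33, with 1 of 13 genes more positive and 1 more negative by the test. The zinc transporter YALI0_F15411g, at 400 and 405 FPKM before limitation here, had 2.60 and 5.48 FPKM at that phase in the controlled culture and 0.62 and 0.93 after it.

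**Figure D5:**
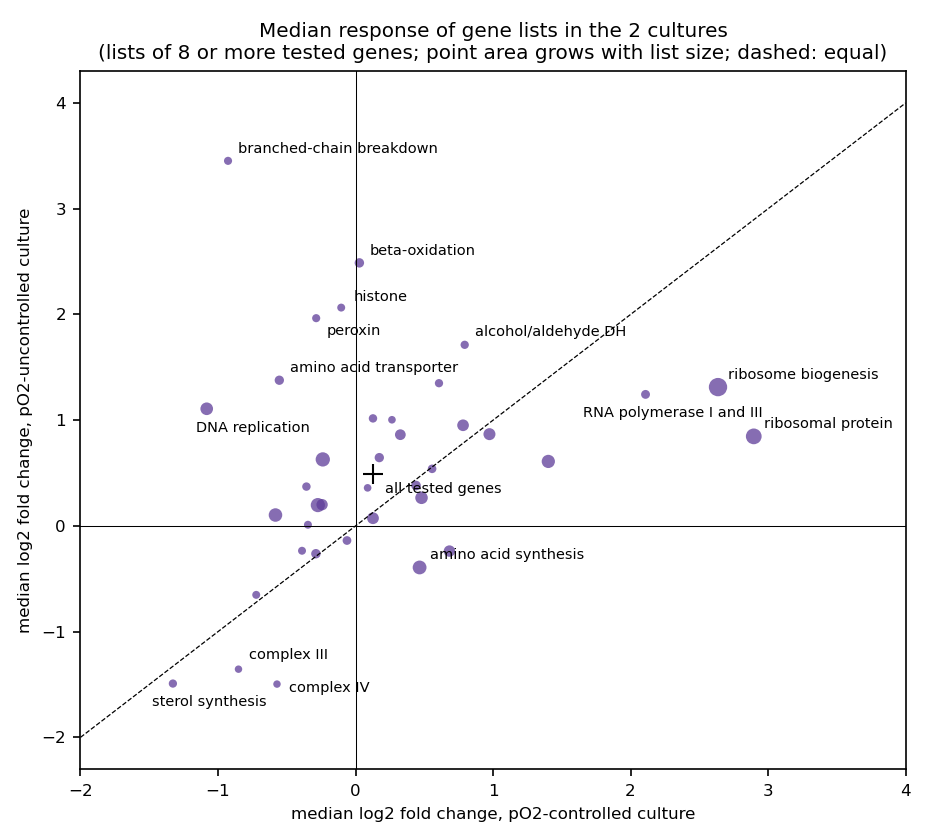
Median log2 fold change (after against before limitation) of each gene list of 8 or more tested genes in the pO2-controlled culture (horizontal) and the pO2-uncontrolled culture (vertical), point area growing with list size. The cross is the median of all tested genes and the dashed line marks equal medians. Branched-chain degradation (3.45 against -0.93), beta-oxidation and DNA replication lie above the line, and ribosomal proteins (0.85 against 2.90) below it.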

How the data were processed

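RNA-seq libraries of Y. lipolytica cells from fermenters were paired-end sequenced (Illumina TruSeq kit, HiSeq). The submitters' processing notes name FastQC, TopHat2 and Cufflinks, with versions not given in the sources used here, and the study names the CLIB122 assembly as reference, which is another strain than ACA DC 50109. The values deposited by the authors are FPKM per gene in 1 table per culture, with KEGG Orthology and Blast nr annotation. No column was left unmapped (0). The labels do not state which phase lies before and which after glycerol limitation, and this was taken from the heading of a supplementary table of the study.

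Depth was estimated from the steps of low FPKM values: 96.5 to 98.7% of those used were whole fragment numbers within 0.08, with an offset of 50 bases on gene length. FPKM were analysed as log2(FPKM + 1) with limma 3.58.1 (eBayes with trend) in R 4.3.3 (tables with Python 3.11.15 and pandas 2.3.3), with genes of at least 1 FPKM in 2 or more of 4 libraries, 2 residual degrees of freedom and Benjamini-Hochberg adjustment over all tested genes. The fit was tested on simulated data. Fold changes on this scale understate the change of low genes. A permutation test of 2 against 2 libraries could not go below p = 0.333 and was not used. The interaction was fitted over all 8 libraries. Alternatives were another pseudocount (0.1), no filter or a minimum of 5 FPKM, median-of-ratios scaling, equal summed FPKM, eBayes without trend, other thresholds, a replicate block and leaving out each library.

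The 44 gene lists were matched to the best KEGG hit (e-value at most 1e-20), and matches that were wrong by annotation were dropped once the files had been read. Named genes are the 12 largest changes in each direction, with at least 5 FPKM in the higher phase and groups that do not overlap. Others are the 10 most abundant genes of each phase, the 6 genes with the largest interaction and the 3 longest runs. In each list up to 4 members by change and 3 by abundance were named (lists of up to 8 whole). The comparison, the lists and this rule were chosen with earlier results of these data known. Genes named outside the rule are marked as such. A gene table of another strain was not used.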

Additional observations from a re-analysis of the deposited data

Results flagged for a closer look

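For 6 genes that rose in the culture without pO2 control, the response to glycerol limitation differed most from that with pO2 control by the interaction test (limma, Benjamini-Hochberg adjusted). YALI0_A00110g differed by 11.60 on the log2 scale, with 1.22 and 1.13 FPKM before and 4960 and 4419 after limitation without control, and 3704 and 3643 before and 2517 and 2585 after with control. YALI0_D02453g differed by 10.97, and in the controlled culture it had 3440 and 3619 FPKM before and 1240 and 1290 after. With 2 fragments before limitation in the uncontrolled culture, this difference depends on the pseudocount and is not precise. YALI0_F09691g differed by 10.82. It had 2.26 and 1.86 FPKM before and 68.0 and 71.4 after without control, and 1758 and 1754 before and 19.1 and 24.3 after with control.

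In the remaining 3 the libraries moved in opposite directions as well. YALI0_D06149g, annotated as recyclin-1, differed by 9.31, with 0.44 and 0.22 FPKM before and 69.3 and 139 after without control, and 896 and 864 before and 104 and 102 after with control. It is as imprecise, with 3 fragments before against 952 after without control, a ratio of 317 (exact 95% interval 108 to 1540). YALI0_A06974g differed by 9.27, rising from 4.76 and 3.26 to 487 and 665 FPKM without control against 5329 and 5241 before and 956 and 1011 after with it. YALI0_C17237g, an amino acid transporter, differed by 9.0. Its replicates before limitation without control were 5.01 and 0.42 FPKM, against 54.9 and 88.4 after, and with control it had 996 and 981 before and 48.6 and 42.9 after. In all 6 the largest gap between the cultures was in the phase before limitation.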

How the results depend on the processing

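Median-of-ratios scaling gave 486 higher and 497 lower genes in place of 701 and 310, and a median log2 fold change over all tested genes of 0.031 in place of 0.489. Without a fold minimum 3023 genes were higher and 1327 lower, and with a minimum of 1 on the log2 scale 1998 and 829. For the interaction the corresponding counts were 2392 and 1821 without a minimum and 1624 and 1235 with a minimum of 1, against 739 and 429. Leaving out each library gave between 661 and 769 higher and between 296 and 329 lower genes, and medians between 0.455 and 0.519. When 1 library of a phase is left out, the remaining one is assumed to vary like the other phase. With the replicate number as a replicate block 701 genes were higher and 310 lower, and the interaction counts were 740 and 428. Same-numbered libraries did not deviate together (correlation -0.052), so that they share a number only. No named gene that rose or fell turned its direction under any of these alternatives, while YALI0_C09141g, YALI0_F18480g and YALI0_E27742g, which were not called, went to -0.41, -0.39 and -0.25 after median-of-ratios scaling. Median-of-ratios scaling took 13 named genes below the fold minimum and brought 2 past it, and the values are given beside the genes they concern. With 2 libraries per phase the estimates rest on 2 residual degrees of freedom, and genes of up to 3 fragments carry no precise fold change.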
